A study of Danio rerio with 12 samples.

Results

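The genes described here are 35 measured genes of the p53 response and of apoptosis, out of 32105 genes in the count table of 2-day-old zebrafish (Danio rerio). A gene was included when its Ensembl identifier carried 1 of the 33 listed zebrafish symbols reported on, of which 32 were found. Of the 35 identifiers, 28 were matched by their own symbol and 7 by a symbol that the copies of a duplicated gene share, so that GADD45A, GADD45B and PLK2 each stand for a pair of identifiers and BAX stands for the listed baxa. The listed gene aen was not matched and is not analysed here. Close copies can share reads, so their single values are less certain. The 35 genes were separated by role into 3 feedback genes, 9 arrest genes, 10 stress and repair genes and 13 cell death genes, and all 35 passed the filter on low counts.

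p53 is a transcription factor that DNA damage and other stresses stabilise. It switches on genes that stop the cell cycle, help repair and metabolism, or kill the cell through the Bcl-2 family and the caspases. One of its targets is mdm2, whose protein marks p53 for degradation and so closes a feedback loop, which in zebrafish embryos holds p53 low during normal development. The roles given below are those described for the genes of human and mouse.

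RNA was sequenced from whole wild-type animals at an age of 2 days in 3 groups of 4 libraries. The control group carried no perturbation, miR-101a was given to the next group as a synthetic RNA at 2 ng, and the last group was given synthetic miR-29a at 2 ng. Neither a mock treatment nor a route of delivery is in the labels. In each comparison with control, the given microRNA therefore cannot be told apart from its delivery or from added RNA as such. A rise or fall with a microRNA below means a difference of that group from control. They do not say that the 4 libraries of a group came from separate clutches, so the p-values describe library-to-library spread that may be technical. Because whole animals were used, fewer cells of a type and less RNA per cell cannot be told apart.

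Total counts ran from 19804199 to 30383374 per library. Of 25 markers of embryonic tissues, 24 reached a mean of at least 1 CPM (a count scaled to library size) in control. One library stood apart from its label group before any result: miR-29a replicate 3 had a scaling factor of 0.729, against 0.963 to 1.11 in the other 11, and 14.6% of its counts fell on ribosomal protein genes, against 7.52% to 8.98%. Counts over the 35 genes, and the plots of their log2 fold changes, are therefore given with all 12 libraries and without this one. For single genes the text prints the change without this library only in some cases. A change printed with no mention of leaving it out comes from all 12 libraries and need not have the same size without it. The biological coefficient of variation shared by all genes was 21.7% with miR-29a replicate 3 and 7.72% without it. Levels in CPM are counts scaled to equal library size after adjustment by the trimmed mean of M values (TMM), listed in the order of replicates 1 to 4, with means ± SD of 4 libraries. Changes are log2 fold changes ± SE from edgeR's quasi-likelihood test with p-values adjusted by Benjamini-Hochberg over all genes tested, and a gene is said to rise or fall at an adjusted p under 0.05.

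With miR-101a, 12 of the 35 genes rose and 1 fell against control, where 11.7% and 6.97% of all 20872 genes tested did so. Of the cell death genes, the death receptor gene fas and the killer genes bbc3 and pmaip1 rose. So did the caspase genes casp8 and CASP9 and the scaffold gene APAF1. The others that rose were the arrest genes cdkn1a, GADD45A ENSDARG00000043581 and PLK2 ENSDARG00000019130, the stress genes sesn2 and rps27l, and mdm2. The gene that fell was sesn3. The median log2 change over the 35 genes was 0.34, and over all genes tested 0.02. All 4 miR-101a libraries lay above all 4 controls in 20 of the 35 genes and below them in 7, against 23.3% and 20.5% of all genes. The share lying above control, 20 of 35, exceeded the background share, and the share lying below did not. The genes were chosen with earlier results of these data known, so shares here and below are descriptions and not tests. Without miR-29a replicate 3 the estimate of the spread became smaller, and 20 of the 35 rose and 8 fell, against 23.7% and 24.2% of 21085 genes. Of those 21085 genes, 23.2% lay above the controls and 20.4% below them in all 4 miR-101a libraries.

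With miR-29a, 17 of the 35 genes rose and 0 fell by edgeR, against 17.1% and 11.9% of all genes. At an unadjusted p under 0.05 edgeR had 1 lower, sesn3, and DESeq2 called 0 lower. Those that rose were fas, the killer genes bbc3, pmaip1, BAX and baxb, the caspase genes casp8 and CASP9 with APAF1, the arrest genes cdkn1a, GADD45A ENSDARG00000043581, GADD45B ENSDARG00000013576 and PLK2 ENSDARG00000019130, the stress and repair genes SESN1, sesn2, rps27l and DDB2, and mdm2. Both comparisons use the same control libraries, so their counts are not independent. The median log2 change was 0.34 over the 35 genes and 0.03 over all genes. All 4 miR-29a libraries lay above the controls in 17 genes and below them in 1, where 18.4% and 15.1% of all genes did so. Without replicate 3, 20 genes rose and 3 fell, against 25.8% and 26.8% of all genes, and the 3 remaining libraries lay above the controls in 20 genes and below them in 3, against 27.9% and 28.1%.

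**Figure D1:**
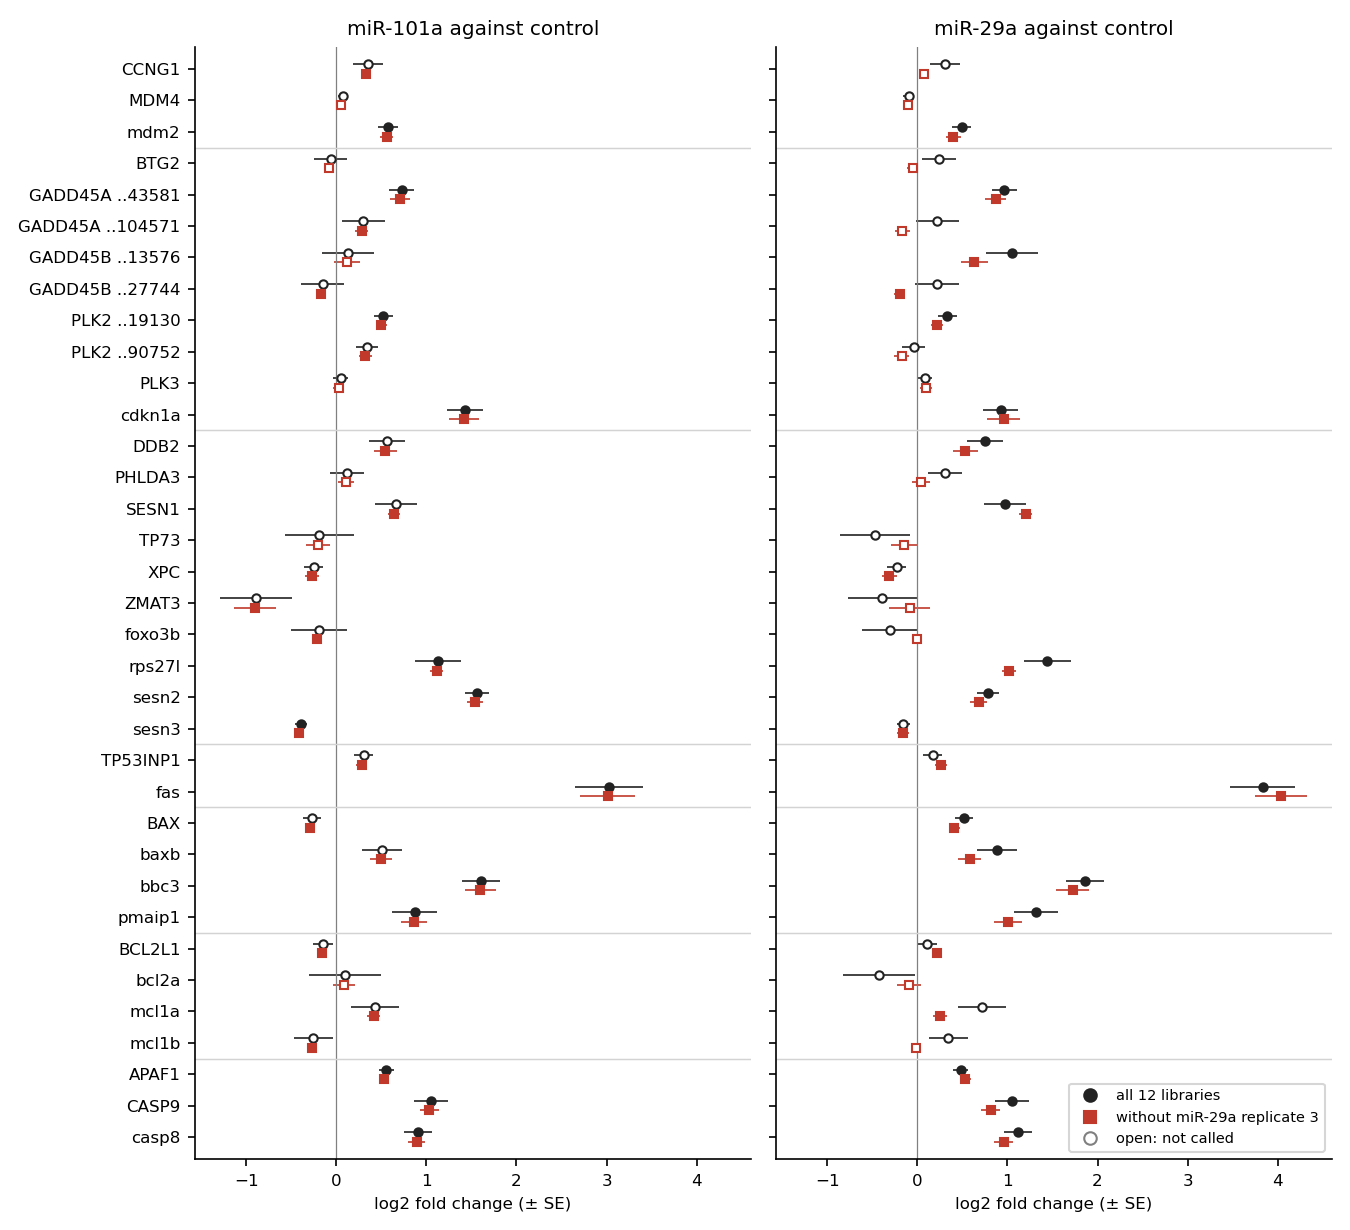
Log2 fold change of each of the 35 genes against control, grouped by role, for miR-101a and miR-29a, with all libraries and without miR-29a replicate 3. Points are fitted values, bars are SE, filled points are called at an adjusted p under 0.05, and .. stands for the leading part of an identifier. The farthest point in each comparison is fas (3.03 with miR-101a and 3.83 with miR-29a, all libraries), and most filled points lie above 0.

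Cell death genes made up the largest role and held more of the rises than any other role. The role joins genes that promote death with 4 survival genes of the Bcl-2 family. Its share of rises was 46.2% with miR-101a and 61.5% with miR-29a. The next highest shares were 33.3% (arrest and feedback) and 44.4% (arrest). Of the 13, 6 rose and 0 fell with miR-101a, and 8 rose and 0 fell with miR-29a. Over all genes tested 11.7% rose and 6.97% fell with miR-101a, and 17.1% and 11.9% with miR-29a. By edgeR 1 cell death gene was lower with miR-101a at an unadjusted p under 0.05, BAX, and DESeq2 also called 1 lower. With miR-29a 0 were lower by either measure. Without replicate 3 the counts became 9 higher and 3 lower with miR-101a, and 11 higher and 0 lower with miR-29a. Of these, the survival genes supplied 1 higher and 2 lower with miR-101a, and 2 higher with miR-29a. The background was then 23.7% and 24.2% with miR-101a and 25.8% and 26.8% with miR-29a. The share of cell death genes lower with miR-101a was thus near that of all genes.

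Among the 4 Bcl-2 family genes that promote death, bbc3 changed most. It encodes Puma, a protein that binds and blocks the survival members of the family. Its level was 1.97, 1.68, 2.14 and 1.69 CPM in control, 7.83, 4.21, 5.48 and 5.20 CPM with miR-101a and 6.83, 5.79, 8.69 and 5.99 CPM with miR-29a. Every treated library lay above every control, and the treated groups overlapped. The log2 change was 1.61 ± 0.21 (adjusted p = 0.000322) with miR-101a and 1.86 ± 0.21 (adjusted p = 5.99e-05) with miR-29a. Leaving out replicate 3 gave a miR-29a change of 1.72 ± 0.18.

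pmaip1 encodes Noxa, another inhibitor of survival proteins. Its level was 3.30, 2.32, 2.32 and 2.96 CPM in control, 5.85, 4.41, 4.61 and 5.01 CPM with miR-101a and 6.15, 5.25, 10.9 and 5.02 CPM with miR-29a. Again no treated library reached down to the controls, and miR-29a replicate 3 lay above the other miR-29a libraries. The log2 change was 0.87 ± 0.25 (adjusted p = 0.0289) with miR-101a and 1.32 ± 0.25 (adjusted p = 0.00195) with miR-29a, or 1.01 ± 0.15 without replicate 3. The miR-101a call was the weaker of the pair: it was lost in 6 of 19 alternatives, each leaving out 1 library (control replicate 2, 3 or 4, or miR-101a replicate 1, 3 or 4), and its adjusted p over the 19 ranged from 7.75e-05 to 0.0883.

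The Bax genes, whose proteins open the outer mitochondrial membrane, did not move alike. BAX stood at 50.7, 49.5, 50.8 and 48.4 CPM in control, 40.9, 42.5, 39.6 and 42.1 CPM with miR-101a and 71.7, 58.5, 86.2 and 69.0 CPM with miR-29a. All 4 miR-101a libraries were below the controls and all 4 miR-29a libraries above them. The rise with miR-29a was 0.52 ± 0.10 (adjusted p = 0.00222), and the miR-101a difference of -0.27 ± 0.10 (adjusted p = 0.0809) was called in 6 of 19 alternatives, DESeq2 among them, and stood at -0.29 ± 0.06 (adjusted p = 0.000509) without replicate 3. baxb had 3.39, 3.96, 4.14 and 3.46 CPM in control, 6.29, 4.76, 4.79 and 5.47 CPM with miR-101a and 5.52, 5.75, 10.9 and 5.59 CPM with miR-29a. Both treated groups lay above control, with replicate 3 high within miR-29a. It rose with miR-29a (0.88 ± 0.22, adjusted p = 0.0105), and with miR-101a the value was 0.51 ± 0.22 (adjusted p = 0.141), called without replicate 3 at 0.50 ± 0.12 (adjusted p = 0.00235). Without replicate 3 baxb had 5.62 ± 0.12 CPM (SD, n = 3) with miR-29a, against 5.33 ± 0.719 CPM with miR-101a.

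The 4 genes of the survival side of the Bcl-2 family were not called by edgeR in either comparison with all libraries. With miR-29a, 1 of them, mcl1a, was higher at an unadjusted p under 0.05, and DESeq2 called 1 higher. mcl1a and mcl1b encode copies of Mcl-1, and their levels in miR-29a replicate 3, 171 and 119 CPM, were far above the 61.9 to 75.7 and 54.9 to 56.9 CPM of the other miR-29a libraries. Without that library mcl1a was higher than control with miR-101a (0.41 ± 0.07, adjusted p = 0.00023) and with miR-29a (0.25 ± 0.08, adjusted p = 0.0131). mcl1b was then lower with miR-101a (-0.28 ± 0.05, adjusted p = 0.000213) and had 56.2 ± 1.13 CPM (SD, n = 3) with miR-29a against 56.8 ± 3.25 CPM in control. BCL2L1, the gene of Bcl-xL, ran at 50.8 to 54.1 CPM in control, 44.6 to 50.8 CPM with miR-101a and 57.2 to 63.8 CPM in the 3 remaining miR-29a libraries. Its differences without replicate 3 had opposite signs, -0.17 ± 0.05 (adjusted p = 0.0153) with miR-101a and 0.22 ± 0.06 (adjusted p = 0.00303) with miR-29a. bcl2a, the gene of Bcl-2, was called in neither set of libraries and stood at 5.93 to 8.58 CPM in control, 7.27 to 9.30 CPM with miR-101a and 7.08 to 7.89 CPM with miR-29a outside replicate 3, which had 1.14 CPM.

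fas, the gene of a cell surface death receptor, had the largest fold change of the 35 in both comparisons. It was close to the detection limit in control, with 15 counts over the 4 libraries. The level was 0.251, 0.0713, 0.140 and 0.115 CPM in control, 1.19, 1.39, 0.987 and 1.22 CPM with miR-101a and 2.57, 2.45, 1.09 and 2.17 CPM with miR-29a. Every treated library lay above every control, and miR-29a replicate 3 fell among the miR-101a libraries while the other miR-29a libraries lay above them. The log2 change was 3.03 ± 0.38 (adjusted p = 0.000233) with miR-101a and 3.83 ± 0.36 (adjusted p = 1.8e-05) with miR-29a. TP53INP1, which encodes a stress-induced protein of the p53 response, stood at 26.1 to 31.3 CPM in control, 34.5 to 35.4 CPM with miR-101a and 25.1 to 36.1 CPM with miR-29a. It was not called with all libraries, and without replicate 3 it was called at 0.28 ± 0.06 with miR-101a and 0.26 ± 0.07 with miR-29a. Over the 19 alternatives this was 1 of 2 calls with miR-101a and the 1 call with miR-29a.

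The initiator caspase genes casp8 and CASP9 rose with each microRNA. casp8, the initiator downstream of death receptors, stood at 7.40, 7.52, 6.18 and 6.16 CPM in control, 13.3, 11.6, 13.8 and 12.3 CPM with miR-101a and 14.8, 13.1, 19.4 and 12.01 CPM with miR-29a. CASP9, the initiator that the apoptosome activates, stood at 6.07, 6.77, 6.88 and 6.35 CPM in control, 15.7, 13.4, 13.0 and 11.9 CPM with miR-101a and 12.6, 11.9, 19.8 and 10.004 CPM with miR-29a. Both genes separated every treated library from every control. casp8 rose by 0.91 ± 0.15 (adjusted p = 0.00167) with miR-101a and 1.12 ± 0.15 (adjusted p = 0.000224) with miR-29a on the log2 scale. CASP9 rose by 1.05 ± 0.19 (adjusted p = 0.0024) and 1.05 ± 0.19 (adjusted p = 0.00139). In both genes replicate 3 was the highest miR-29a library. Without it CASP9 had 11.5 ± 1.36 CPM (SD, n = 3) with miR-29a, against 13.5 ± 1.58 CPM with miR-101a. casp8 then had 13.3 ± 1.38 CPM with miR-29a, against 12.8 ± 0.968 CPM with miR-101a. APAF1, which encodes the scaffold of the apoptosome, had 26.3, 25.6, 26.5 and 24.2 CPM in control, 36.1, 39.7, 36.3 and 38.5 CPM with miR-101a and 37.6, 38.7, 31.2 and 35.4 CPM with miR-29a, and rose by 0.55 ± 0.08 (adjusted p = 0.000708) and 0.48 ± 0.08 (adjusted p = 0.00101). Here miR-29a replicate 3 was the lowest treated library, still above control.

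**Figure D2:**
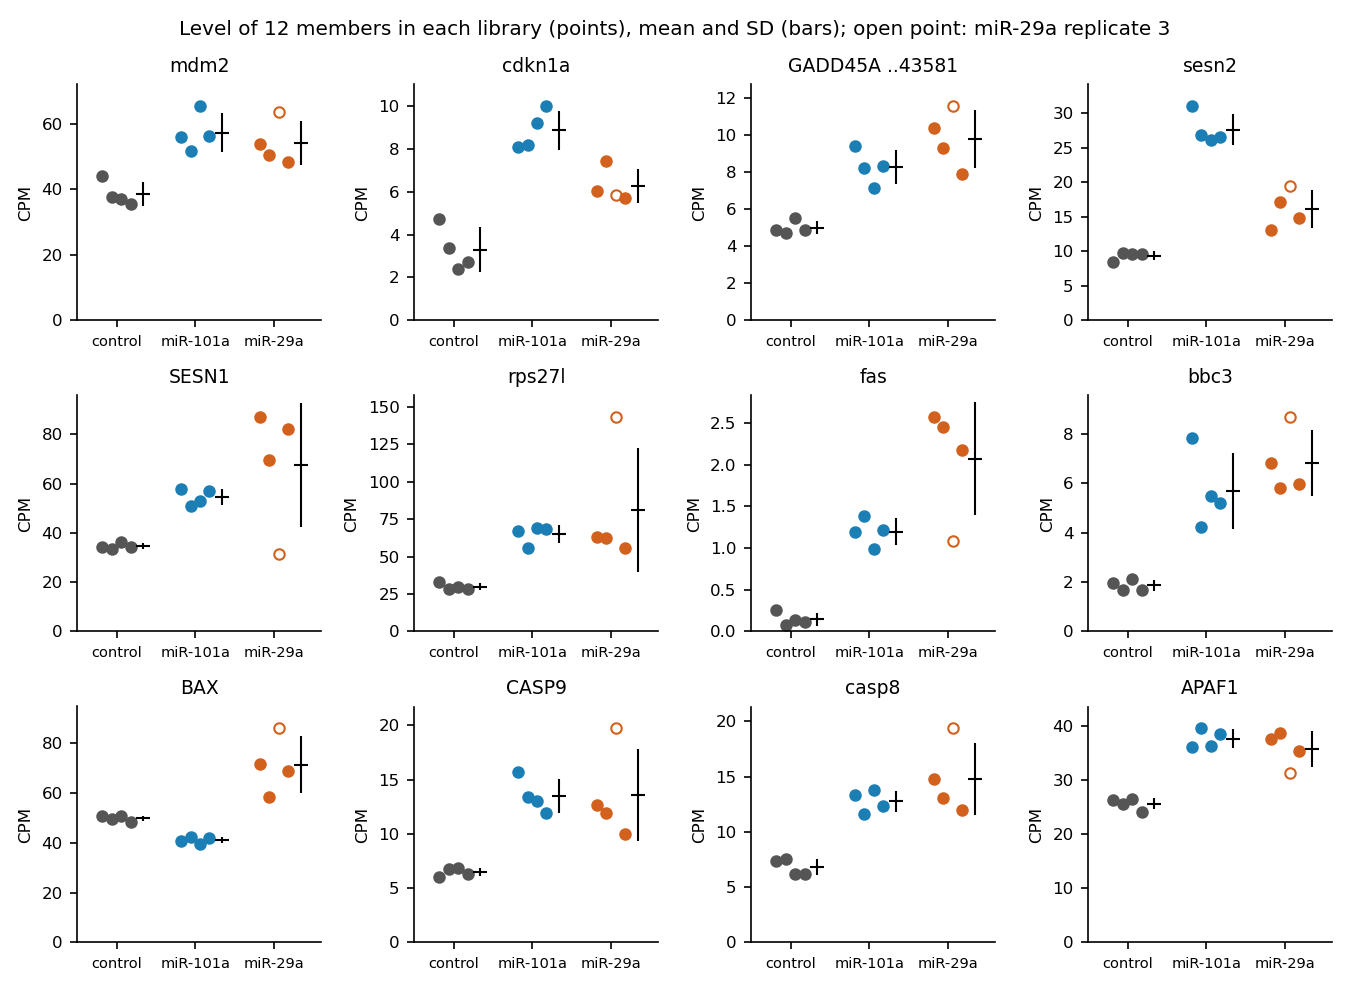
Level in CPM (vertical axis, from 0) of 12 of the genes called in at least 1 comparison with all libraries, for each library of control, miR-101a and miR-29a. Points are libraries, crosses with bars are group means with SD over 4 libraries, the open point is miR-29a replicate 3, and .. stands for the leading part of an identifier. fas, bbc3, casp8 and APAF1 show all treated libraries above control.

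Of the 3 feedback genes, mdm2 rose with both microRNAs. Its level was 43.9, 37.5, 37.0 and 35.4 CPM in control, 55.8, 51.5, 65.4 and 56.3 CPM with miR-101a and 53.7, 50.5, 63.6 and 48.2 CPM with miR-29a. Both treated groups lay above control and overlapped each other. The log2 change was 0.57 ± 0.11 (adjusted p = 0.00342) with miR-101a and 0.49 ± 0.11 (adjusted p = 0.00535) with miR-29a, or 0.40 ± 0.08 without replicate 3. CCNG1, the gene of cyclin G1 and the highest of the 35 per length, had 785, 689, 663 and 709 CPM in control, 896, 905, 915 and 918 CPM with miR-101a and 763, 771, 1269 and 717 CPM with miR-29a. The 4 miR-101a libraries lay close together above control, and of the miR-29a libraries replicate 3 lay above the miR-101a range and the others below it. Neither difference was called with all libraries. Without replicate 3 the miR-101a change was 0.33 ± 0.05 (adjusted p = 3.6e-05), and the miR-29a value was 0.07 ± 0.06 (adjusted p = 0.282). MDM4, which encodes a partner of Mdm2 that blocks p53 activity, ran at 83.5 to 89.6 CPM in control, 87.8 to 94.7 CPM with miR-101a and 78.4 to 84.3 CPM with miR-29a and was not called against control.

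Of the 9 arrest genes, 3 rose with miR-101a and 4 with miR-29a, and 0 fell in either, where 11.7% and 17.1% of all genes rose and 6.97% and 11.9% fell. The count of 0 lower among 9 genes is near those shares of falls. The edgeR counts of 0 were also 0 at an unadjusted p under 0.05 and by DESeq2. Without replicate 3, 5 rose and 1 fell with miR-101a, and 4 rose and 1 fell with miR-29a, against 23.7% and 24.2%, and 25.8% and 26.8%, of all genes. cdkn1a encodes p21, the inhibitor of cyclin-dependent kinases through which p53 stops the cell cycle. It stood at 4.73, 3.35, 2.39 and 2.73 CPM in control, 8.08, 8.18, 9.18 and 9.99 CPM with miR-101a and 6.03, 7.43, 5.84 and 5.69 CPM with miR-29a. The groups did not overlap, in the order control, miR-29a, miR-101a. The log2 change was 1.43 ± 0.20 (adjusted p = 0.00049) with miR-101a and 0.92 ± 0.20 (adjusted p = 0.00436) with miR-29a.

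The Gadd45 genes encode small stress proteins that slow entry into mitosis, and their 4 identifiers differed. GADD45A ENSDARG00000043581 had 4.89, 4.74, 5.51 and 4.89 CPM in control, 9.43, 8.23, 7.17 and 8.35 CPM with miR-101a and 10.4, 9.33, 11.6 and 7.90 CPM with miR-29a, with both treated groups above control. It rose by 0.73 ± 0.14 (adjusted p = 0.00359) with miR-101a and 0.96 ± 0.14 (adjusted p = 0.000327) with miR-29a. GADD45B ENSDARG00000013576 had 4.77, 4.99, 4.18 and 5.08 CPM in control, 6.22, 4.71, 4.86 and 5.01 CPM with miR-101a and 7.59, 5.48, 17.4 and 8.97 CPM with miR-29a. The miR-29a libraries lay above control and spread widely, and the miR-101a libraries overlapped control. It rose with miR-29a (1.05 ± 0.29, adjusted p = 0.0175, or 0.63 ± 0.15 (adjusted p = 0.00172) without replicate 3), and with miR-101a the value was 0.13 ± 0.29 (adjusted p = 0.828). That call was lost in 2 of 19 alternatives, at an adjusted p of 0.0529 without control replicate 3 and 0.0525 with only the 8 libraries compared, and ranged down to 0.00172.

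The remaining Gadd45 identifiers were set apart by miR-29a replicate 3. GADD45A ENSDARG00000104571 had 27.8 CPM there against 11.04 to 13.6 CPM in the other miR-29a libraries, 13.3 to 14.4 CPM in control and 16.1 to 18.4 CPM with miR-101a. GADD45B ENSDARG00000027744 had 53.6 CPM there against 21.8 to 24.0 CPM in the others, 25.4 to 27.0 CPM in control and 22.7 to 25.0 CPM with miR-101a. Neither was called with all libraries. Without replicate 3, GADD45A ENSDARG00000104571 was higher with miR-101a (0.28 ± 0.07, adjusted p = 0.00475), and GADD45B ENSDARG00000027744 was lower with miR-101a (-0.17 ± 0.06, adjusted p = 0.0191) and with miR-29a (-0.20 ± 0.06, adjusted p = 0.0119). The miR-29a value of GADD45B ENSDARG00000027744 was 0.22 ± 0.24 with all libraries, so its sign turned with this 1 library.

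Polo-like kinases 2 and 3 are stress-induced kinases of cell cycle checkpoints. PLK2 ENSDARG00000019130 had 22.5, 21.6, 21.6 and 20.6 CPM in control, 29.7, 31.4, 32.8 and 29.7 CPM with miR-101a and 23.6, 27.4, 33.2 and 24.6 CPM with miR-29a. Both treated groups lay above control. It rose by 0.52 ± 0.11 (adjusted p = 0.00505) with miR-101a and 0.33 ± 0.11 (adjusted p = 0.0331) with miR-29a, and the latter call was lost in 6 of 19 alternatives. These were the 8 libraries compared alone, each control library left out in turn and miR-29a replicate 2 left out, and the adjusted p over all 19 ranged from 0.0102 to 0.0902. PLK2 ENSDARG00000090752 ran at 15.8 to 19.2 CPM in control and 19.6 to 23.8 CPM with miR-101a, a difference called in 3 of 19 alternatives, DESeq2 among them, and without replicate 3 at 0.32 ± 0.08 (adjusted p = 0.00187). PLK3 and the antiproliferative gene BTG2 were called in no comparison with either set of libraries. PLK3 ran at 71.7 to 80.9 CPM in control, 72.4 to 89.6 CPM with miR-101a and 79.0 to 88.2 CPM with miR-29a. BTG2 ran at 90.7 to 98.1, 87.9 to 91.3 and 80.1 to 170 CPM in the same order.

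Of the 10 stress and repair genes, 2 rose and 1 fell with miR-101a, and 4 rose and 0 fell with miR-29a. By edgeR 1 stress and repair gene was lower with miR-29a at an unadjusted p under 0.05, sesn3, and DESeq2 called 0 lower. Without replicate 3 the counts were 4 and 4 with miR-101a, and 4 and 2 with miR-29a. Of all genes 23.7% rose and 24.2% fell with miR-101a in that set, and 25.8% and 26.8% with miR-29a. The counts with all libraries stand against 11.7% higher and 6.97% lower of all genes with miR-101a and 17.1% and 11.9% with miR-29a. The median log2 change of the role was -0.03 with miR-101a and 0.07 with miR-29a.

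The 3 sestrin genes, whose proteins limit oxidative damage and mTORC1 signalling, each followed an order of their own. sesn2 had 8.41, 9.80, 9.62 and 9.62 CPM in control, 31.0, 26.9, 26.1 and 26.6 CPM with miR-101a and 13.0, 17.2, 19.4 and 14.9 CPM with miR-29a. The groups did not overlap, in the order control, miR-29a, miR-101a, and the log2 change was 1.56 ± 0.13 (adjusted p = 1.45e-05) with miR-101a and 0.78 ± 0.13 (adjusted p = 0.000713) with miR-29a. SESN1 had 34.3, 33.3, 36.4 and 34.3 CPM in control, 57.7, 50.9, 53.1 and 56.9 CPM with miR-101a and 87.1, 69.6, 31.6 and 82.4 CPM with miR-29a. Replicate 3 was below all controls, and the other miR-29a libraries were above all miR-101a libraries. SESN1 rose with miR-29a (0.97 ± 0.24, adjusted p = 0.00875), and by 1.201 ± 0.07 (adjusted p = 1.83e-10) without replicate 3. With miR-101a the value was 0.66 ± 0.23 (adjusted p = 0.0721), called without replicate 3 at 0.64 ± 0.07 (adjusted p = 3.36e-07). sesn3 had 40.1, 37.8, 38.3 and 40.2 CPM in control, 29.6, 31.3, 29.2 and 28.9 CPM with miR-101a and 37.3, 36.2, 34.8 and 31.8 CPM with miR-29a. Every miR-101a library was below every miR-29a library, and these below every control. sesn3 fell with miR-101a, with a log2 change of -0.39 ± 0.07 (adjusted p = 0.00262), and its miR-29a value of -0.16 ± 0.07 (adjusted p = 0.12) was called without replicate 3 at -0.16 ± 0.06 (adjusted p = 0.038).

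rps27l encodes a relative of a ribosomal protein that p53 induces. Its level was 33.2, 28.2, 29.7 and 28.1 CPM in control, 67.1, 55.8, 69.1 and 68.5 CPM with miR-101a and 63.2, 62.4, 143 and 55.7 CPM with miR-29a. All treated libraries lay above control, and replicate 3 lay far above the other 11. rps27l rose by 1.13 ± 0.26 (adjusted p = 0.00968) with miR-101a and 1.44 ± 0.26 (adjusted p = 0.00144) with miR-29a, or 1.02 ± 0.08 without replicate 3. Replicate 3 also carried the highest share of ribosomal protein counts, and its part in the result was not tested. DDB2, which encodes a sensor of ultraviolet damage in DNA, had 3.81, 4.74, 4.11 and 5.16 CPM in control, 5.75, 6.20, 7.97 and 6.42 CPM with miR-101a and 6.87, 6.88, 10.8 and 5.65 CPM with miR-29a. Both treated groups lay above control. DDB2 rose with miR-29a (0.75 ± 0.20, adjusted p = 0.0141), and with miR-101a the value was 0.56 ± 0.20 (adjusted p = 0.0724), called without replicate 3 at 0.54 ± 0.13 (adjusted p = 0.00191). Without replicate 3 DDB2 had 6.47 ± 0.705 CPM (SD, n = 3) with miR-29a, against 6.58 ± 0.965 CPM with miR-101a.

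The other 5 stress and repair genes were not called with all libraries. XPC, which encodes another sensor of DNA lesions, stood at 25.0 ± 1.42 CPM in control, 21.0 ± 1.93 CPM with miR-101a and 21.3 ± 2.73 CPM with miR-29a, and was lower in both comparisons without replicate 3 (-0.27 ± 0.08 and -0.31 ± 0.08). ZMAT3, which encodes an RNA-binding p53 target, stood at 1.16 to 1.76 CPM in control, 0.512 to 1.04 CPM with miR-101a and 0.259 to 1.74 CPM with miR-29a, and was lower with miR-101a without replicate 3 (-0.90 ± 0.23, adjusted p = 0.00382). foxo3b, a forkhead transcription factor gene, had 89.4 to 96.1 CPM in control, 77.2 to 85.5 CPM with miR-101a and 88.6 to 94.4 CPM with miR-29a, where replicate 3 had 23.8 CPM. It was lower with miR-101a without replicate 3 (-0.21 ± 0.05, adjusted p = 0.00133). PHLDA3, which encodes an inhibitor of Akt, and TP73, a relative of p53, were called against control in neither set of libraries. PHLDA3 stood at 9.43 ± 0.581, 10.3 ± 0.812 and 11.7 ± 3.96 CPM, and TP73 at 2.91 ± 0.304, 2.56 ± 0.182 and 2.07 ± 1.15 CPM, in the order control, miR-101a, miR-29a.

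The direct comparison of miR-101a with miR-29a sets treated libraries against treated libraries, and 4 of the 35 genes differed in it. sesn2 (0.78 ± 0.13, adjusted p = 0.00145) was higher with miR-101a. BAX (-0.79 ± 0.10, adjusted p = 0.000364), GADD45B ENSDARG00000013576 (-0.92 ± 0.29, adjusted p = 0.0475) and sesn3 (-0.23 ± 0.07, adjusted p = 0.0411) were lower with miR-101a. This 1 higher gene and the 3 lower genes compare with 9.23% and 8.64% of all genes tested, so the 35 genes were not called more often than all genes. The miR-101a libraries lay above all miR-29a libraries in 3 genes and below them in 3, against 12.0% and 11.6% of all genes. The calls for GADD45B ENSDARG00000013576 and sesn3 were each lost in 13 of 19 alternatives, with adjusted p-values of up to 0.140 and 0.154.

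Without replicate 3 the direct comparison had 7 genes higher and 9 lower for miR-101a, against 22.1% and 21.3% of all genes, and the groups were fully separated in 7 and 8 genes, against 24.0% and 20.9%. The 7 higher genes were sesn2, cdkn1a (0.46 ± 0.17), MDM4 (0.16 ± 0.05), CCNG1 (0.26 ± 0.06), GADD45A ENSDARG00000104571 (0.45 ± 0.08) and both PLK2 identifiers (0.28 ± 0.07 for PLK2 ENSDARG00000019130 and 0.50 ± 0.08 for PLK2 ENSDARG00000090752). Except for sesn2, these are arrest or feedback genes. The 9 lower genes were BAX, GADD45B ENSDARG00000013576, sesn3, fas (-1.02 ± 0.20, adjusted p = 0.000544), SESN1 (-0.56 ± 0.07, adjusted p = 4.46e-06), ZMAT3 (-0.82 ± 0.25), BCL2L1 (-0.39 ± 0.06), mcl1b (-0.26 ± 0.05) and foxo3b (-0.20 ± 0.05). By role, 4 arrest genes of 9, 2 feedback genes of 3 and 1 stress and repair gene of 10 were on the miR-101a side. On the miR-29a side were 1 arrest gene, 4 stress and repair genes and 4 cell death genes of 13. The totals of 7 and 9 of 35 lay near the shares of all genes, and a difference between roles was not tested. bbc3, pmaip1, casp8, CASP9, APAF1 and baxb were not called between the microRNAs in either set, and the value of bbc3 was -0.26 ± 0.20 with all libraries and -0.12 ± 0.16 without replicate 3, which does not show that the levels were equal.

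**Figure D3:**
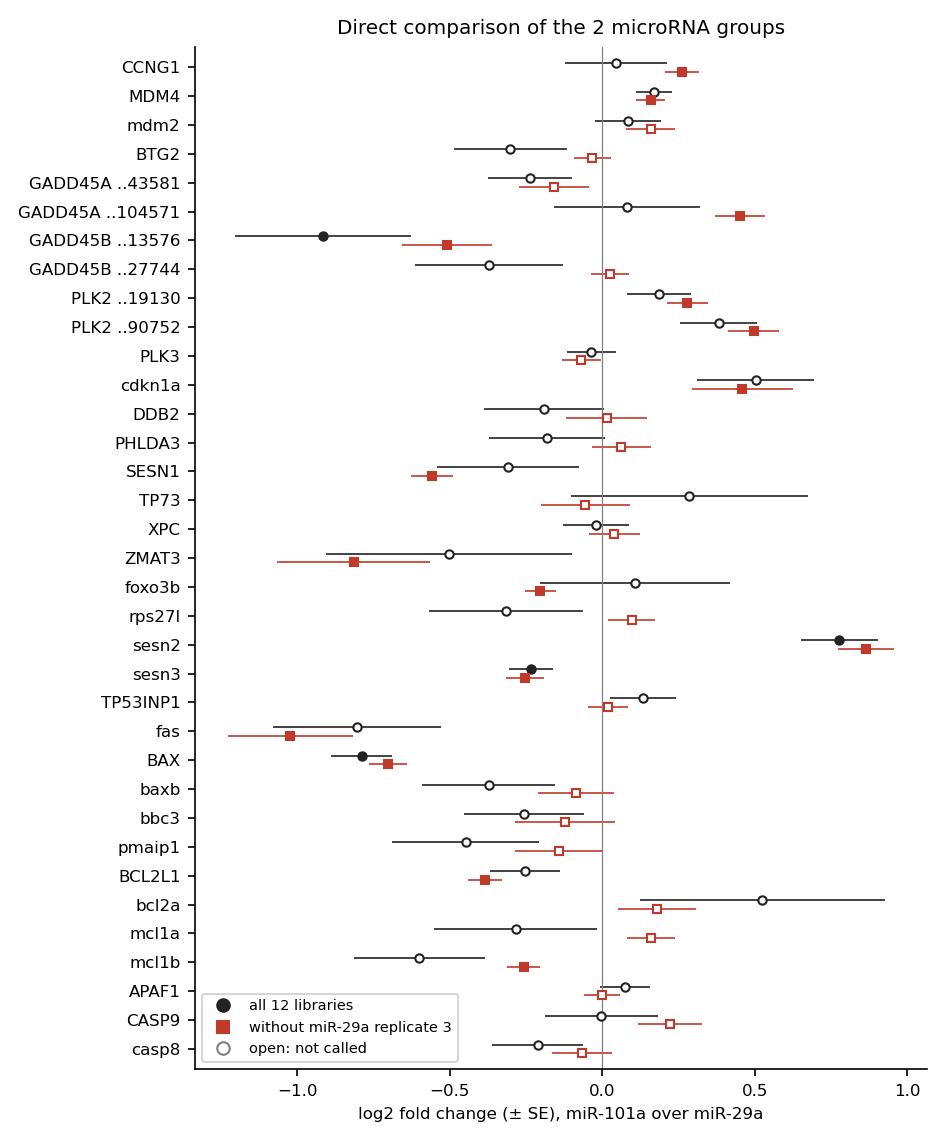
Log2 fold change of miR-101a against miR-29a for the 35 genes, with all libraries and without miR-29a replicate 3. Points are fitted values, bars are SE, filled points are called at an adjusted p under 0.05, and values above 0 are higher with miR-101a. sesn2 (0.78) lies to one side and BAX (-0.79) to the other with all libraries.

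Levels per length were compared in control as library-scaled counts per kilobase (RPKM), recomputed from the counts. CCNG1 was the highest at 294 ± 21.6 RPKM (SD, n = 4), followed by rps27l at 50.5 ± 4.02 RPKM and BTG2 at 44.7 ± 1.57 RPKM. The survival gene mcl1a came next at 40.6 ± 1.95 RPKM. At the low end, bbc3 stood at 0.491 ± 0.0591 RPKM and fas at 0.0899 ± 0.0476 RPKM, below TP73 at 0.999 ± 0.104 RPKM. The genes with the largest fold changes against control, fas and bbc3, were thus those with the lowest levels per length. The next lowest did not rise. TP73 had log2 values of -0.19 with miR-101a and -0.47 with miR-29a, and ZMAT3 of -0.89 and -0.39, all not called with all libraries. Of the 4 highest genes, rps27l was called in both comparisons, and CCNG1, BTG2 and mcl1a were not called with all libraries. Of the 34 pairs of neighbours in this order, 21 had overlapping ranges over the control libraries, so the middle of the order is not resolved.

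**Figure D4:**
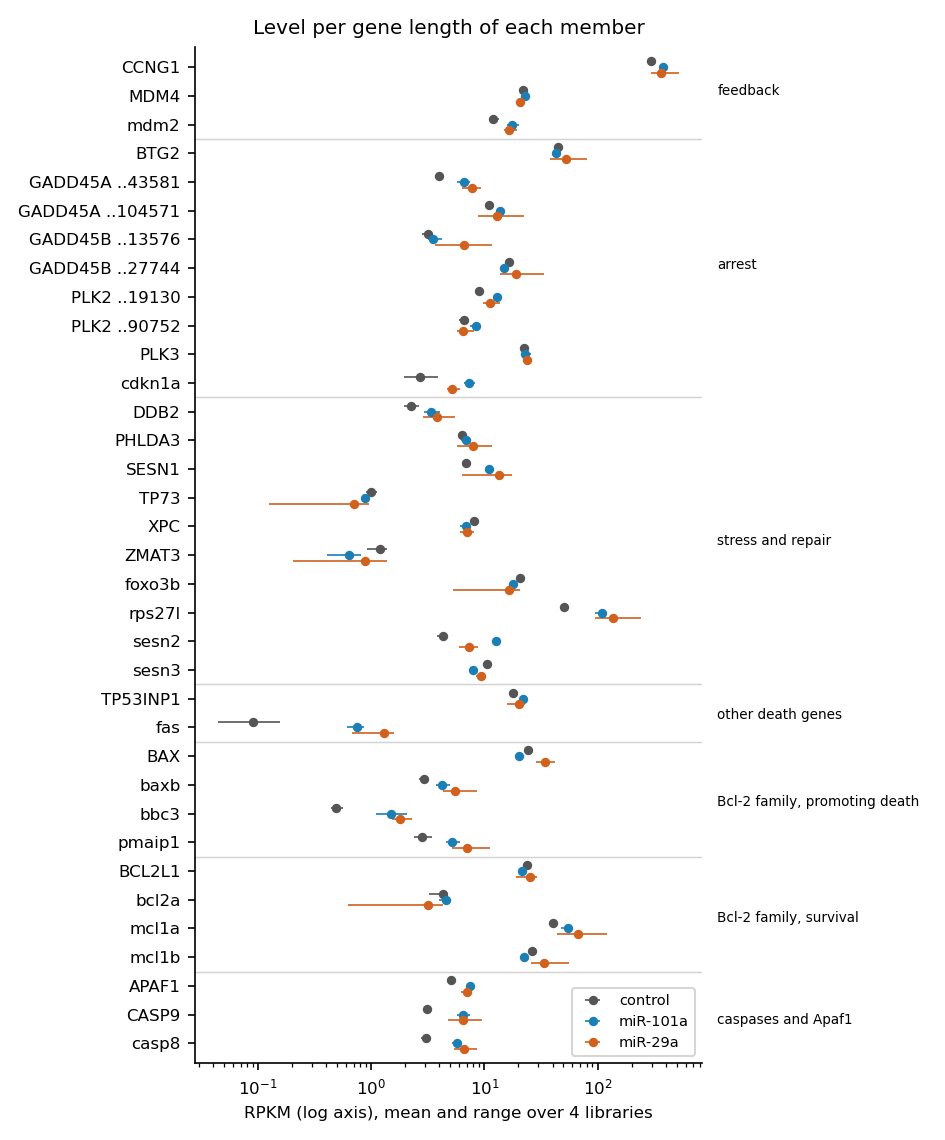
Level per length of the 35 genes in control, miR-101a and miR-29a, as RPKM on a log axis, grouped by role. Points are means, bars run from the lowest to the highest of 4 libraries, and .. stands for the leading part of an identifier. In control CCNG1 is the highest (294 RPKM) and fas the lowest (0.0899 RPKM).

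Other genes of the pathway were drawn from lists that hold no member. Among 26 further genes, p53 targets and relatives of such genes, 2 rose and 1 fell with miR-101a, and 4 rose and 2 fell with miR-29a. The list is broad and includes CDKN1B, cdkn1ca and foxo3a, so its counts do not describe p53 targets alone. Neither share of rises exceeded that of all genes, 11.7% and 17.1%, nor did either share of falls, 6.97% and 11.9%. CDKN1B ENSDARG00000029018, a copy of the gene of the cell cycle inhibitor p27, rose in both (0.51 ± 0.08 and 0.45 ± 0.08), and foxo3a, a duplicate of foxo3b, fell in both (-0.26 ± 0.06 and -0.41 ± 0.06). RRM2B, which encodes the p53-inducible subunit of ribonucleotide reductase, had 44.8, 47.8, 41.9 and 50.1 CPM in control, 43.7, 37.6, 33.5 and 43.6 CPM with miR-101a and 120, 91.1, 147 and 96.7 CPM with miR-29a. The miR-29a libraries lay well above all others, and the change was 1.30 ± 0.15 (adjusted p = 6.41e-05) with miR-29a and -0.22 ± 0.15 (adjusted p = 0.361) with miR-101a. Its direct difference was -1.52 ± 0.15 (adjusted p = 9.6e-05). EI24 (0.44 ± 0.10) and tigarb (0.81 ± 0.20) also rose with miR-29a, and PPM1D ENSDARG00000009273, a copy of the gene of a phosphatase that turns p53 signalling off, fell (-0.33 ± 0.11). TP53I11 ENSDARG00000006025 rose with miR-101a (0.37 ± 0.10). Without replicate 3 the list had 6 higher and 7 lower with miR-101a, against 23.7% and 24.2% of all genes, and 6 and 10 with miR-29a, against 25.8% and 26.8%.

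Of 36 tested identifiers of other apoptosis machinery, out of 47 in the table, 8 rose and 3 fell with miR-101a, and 12 rose and 4 fell with miR-29a. The symbol HTRA2 alone supplied 11 of the 47 identifiers. All genes tested had 11.7% higher and 6.97% lower with miR-101a, and 17.1% and 11.9% with miR-29a. The median log2 change was 0.20 with miR-101a and 0.21 with miR-29a. bada, a further killer gene of the Bcl-2 family, had 4.27, 5.31, 5.44 and 4.46 CPM in control, 21.4, 21.0, 21.5 and 17.5 CPM with miR-101a and 15.2, 14.2, 21.7 and 14.3 CPM with miR-29a. No treated library overlapped control, and bada rose by 2.06 ± 0.16 (adjusted p = 8.93e-06) and 1.74 ± 0.16 (adjusted p = 1.35e-05). tnfrsf1a, the gene of a receptor for tumour necrosis factor, rose by 1.36 ± 0.13 and 1.43 ± 0.13. BOK ENSDARG00000052129 rose in both (0.62 ± 0.10 and 0.89 ± 0.10), and HTRA2 ENSDARG00000069909, a copy of the gene of a mitochondrial protease, rose with miR-101a (0.44 ± 0.12). cflara, which encodes an inhibitor of caspase 8, rose with miR-29a (0.71 ± 0.10). bcl2l13 fell in both (-0.58 ± 0.13 and -0.64 ± 0.13), AIFM1 (-0.30 ± 0.08) and DFFB (-0.50 ± 0.16) fell with miR-101a, and bcl2l10 (-0.55 ± 0.17), acin1a (-0.37 ± 0.10) and acin1b (-0.25 ± 0.08) fell with miR-29a. With replicate 3 left out the list had 16 higher and 7 lower with miR-101a, and 17 and 9 with miR-29a, where all genes had 23.7% and 24.2%, and 25.8% and 26.8%.

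Of 24 tested genes of DNA damage signalling, 0 rose and 2 fell with miR-101a, and 0 rose and 3 fell with miR-29a by edgeR. Of all genes 11.7% and 17.1% rose, and the falls were near the shares of all genes, 6.97% and 11.9%. DESeq2 also called 0 higher in both, and at an unadjusted p under 0.05 edgeR had 0 and 1 higher. USP7 (-0.31 ± 0.07 and -0.35 ± 0.07) and PARP1 (-0.23 ± 0.07 and -0.21 ± 0.07) fell in both, and TOPBP1 (-0.39 ± 0.10) fell with miR-29a. Without replicate 3, 2 were higher and 7 lower with miR-101a, and 3 and 8 with miR-29a. The shares of all genes were then 23.7% and 24.2% with miR-101a, and 25.8% and 26.8% with miR-29a.

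Markers of innate immune cells were measured in the same libraries. The summed level of 20 such markers, none at 0 in any group, was 205 to 212 CPM in control, 231 to 247 CPM with miR-101a and 186 to 399 CPM with miR-29a. Of the 16 tested, 2 rose and 0 fell with miR-101a by edgeR, where 3 were lower at an unadjusted p under 0.05 and 2 by DESeq2. With miR-29a 3 rose and 2 fell by edgeR, where 4 were lower at an unadjusted p under 0.05 and 4 by DESeq2. The shares that rose were near the 11.7% and 17.1% of all genes, of which 6.97% and 11.9% fell. The median log2 change was -0.17 with miR-101a and -0.41 with miR-29a. Without miR-29a replicate 3, 3 were higher and 5 lower with miR-101a, and 4 and 9 with miR-29a, where the median was -0.67. All genes then had 23.7% higher and 24.2% lower with miR-101a, and 25.8% and 26.8% with miR-29a. The 9 of 16 markers lower with miR-29a exceeded that share. MPEG1 ENSDARG00000043093 of macrophages (1.45 ± 0.30 and 2.32 ± 0.31) and CEBPB (1.05 ± 0.29 and 2.15 ± 0.30) rose in both with all libraries. MPEG1 has 3 identifiers, and the others were not called against control with all libraries. Of the copies of MFAP4, another macrophage gene, MFAP4 ENSDARG00000090557 rose (1.26 ± 0.31) and MFAP4 ENSDARG00000088745 fell (-2.23 ± 0.43) with miR-29a. The neutrophil gene lyz fell with miR-29a (-1.60 ± 0.50). Of 24 tested markers of embryonic tissues, 1 rose and 6 fell with miR-101a (median -0.28), and 4 rose and 8 fell with miR-29a (median -0.33), where 6.97% and 11.9% of all genes fell. With that library left out, 3 rose and 13 fell, and 4 rose and 15 fell, where 24.2% and 26.8% of all genes fell. The part of either marker list in the changes of the 35 genes was not tested.

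Within miR-29a, replicate 3 lay above the other 3 libraries in 22 of the 35 genes and below them in 10. Over the 35 genes, Spearman's correlation of its log2 deviation from the mean of the others with gene length was -0.44, a description over genes of 1 library, which share its depth. The 17 genes shorter than the median length of 2093 bases had a median deviation of 0.78, and the 17 longer genes one of 0.29. rps27l, mcl1a and GADD45B ENSDARG00000027744, all shorter than the median, were among the highest, and TP73, bcl2a, ZMAT3, foxo3b, SESN1 and fas lay lowest, of which TP73, foxo3b and SESN1 are longer than it.

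**Figure D5:**
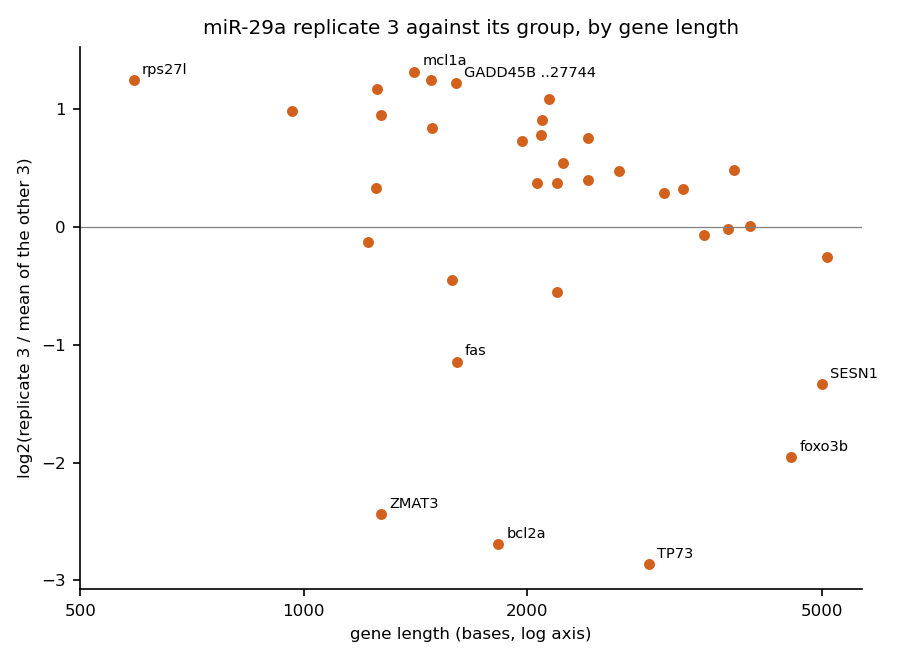
Log2 deviation of miR-29a replicate 3 from the mean of the other 3 miR-29a libraries (vertical axis) against gene length in bases (log horizontal axis), 1 point for each of the 35 genes, with some named. Of the 17 genes shorter than the median length 12 lie above 0, and of the 17 longer genes 10 do.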

How the data were processed

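Libraries of whole wild-type animals were prepared with Illumina's TruSeq v2 RNA kit, per the labels' protocols. Its reads carry no strand, so genes that overlap on opposite strands cannot be told apart. The authors deposited whole-number counts per gene, not normalized, and RPKM values. Per the submitters' processing notes the tools were bcl2fastq 1.8.4, STAR 2.4.1d and featureCounts 1.4.6-p4, with the genome build GRCz10. The deposited RPKM values fitted counts divided by library totals that were recycled down the genes, with the implied gene length varying by at most 0.0265% over 7554 genes, so they were used only to derive gene length, from which RPKM was recomputed.

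Groups of 4 libraries follow the perturbation in the labels. In R 4.3.3 with edgeR 4.0.16 (limma 3.58.1 installed), filterByExpr (minimum count 10) kept 20872 of 32105 genes, libraries were scaled by TMM, and a robust quasi-likelihood model was fitted to all 12 libraries, with Benjamini-Hochberg adjustment over all genes and a threshold of 0.05. The SE is the log2 fold change over the square root of F. The fit was run on simulated data with 200 genes changed in the miR-101a group. These were drawn with the same spread for all genes and libraries. The run therefore does not check the fit where a library stands apart as miR-29a replicate 3 does. Alternatives were RLE scaling, DESeq2 1.42.0, no filter, a filter of 1 CPM in 4 libraries, gene length offsets, a replicate block, only the 8 libraries compared, and each library left out. The genes and lists were chosen with earlier results of these data known. Some listed genes are not reported here. Every other found member is named, with values in each library for those called. Up to 4 called genes per direction and comparison are named from each other list, except the markers of embryonic tissues. Of these only counts and medians are given, so genes that went opposite ways with the microRNAs are not shown. Symbols came from a table pairing identifiers with symbols, and the copies that share a symbol all counted. No sequence is shown.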

Additional observations from a re-analysis of the deposited data

Results flagged for a closer look

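Of 105 sets of 4 libraries examined, 1 for each gene and group, 17 held a library far from the other 3, where chance gives about 1 in 20 sets. Of these, 11 were miR-29a replicate 3. In that library 8 genes stood above the others of the group: CCNG1 at 1269 CPM against 717 to 771, GADD45A ENSDARG00000104571 at 27.8 CPM against 11.04 to 13.6, GADD45B ENSDARG00000027744 at 53.6 CPM against 21.8 to 24.0, baxb at 10.9 CPM against 5.52 to 5.75, rps27l at 143 CPM against 55.7 to 63.2, PLK2 ENSDARG00000090752 at 21.6 CPM against 15.2 to 16.1, mcl1a at 171 CPM against 61.9 to 75.7 and mcl1b at 119 CPM against 54.9 to 56.9. The 3 genes that stood below the others there were foxo3b at 23.8 CPM against 88.6 to 94.4, TP73 at 0.362 CPM against 2.41 to 2.76 and bcl2a at 1.14 CPM against 7.08 to 7.89.

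The other 6 were spread over other libraries, and 6 of 105 sets is near the rate of 1 in 20 that chance gives. The sets share libraries, so they are not independent. sesn2 was low in control replicate 1 (8.41 CPM) and high in miR-101a replicate 1 (31.0 CPM). rps27l was low in miR-101a replicate 2 (55.8 CPM). TP53INP1 was low in miR-101a replicate 1 (34.5 CPM), within a group that spans 34.5 to 35.4 CPM. PLK3 was high in miR-29a replicate 4 (88.2 CPM), and bcl2a was low in control replicate 3 (5.93 CPM).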

How the results depend on the processing

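With all libraries 34 values of the genes were called, over the 3 comparisons. All 34 kept their sign in every alternative, and 29 stayed called in every one. For miR-101a against control, 12 genes higher became 14 with DESeq2 and 20 with only the 8 libraries compared, and 1 lower became 2 with RLE scaling, gene length offsets or DESeq2 and 8 with only the 8 libraries compared. Leaving out 1 library at a time gave 11 to 20 higher and 1 to 8 lower. For miR-29a against control, 17 genes higher became 18 with DESeq2, and leaving out 1 library gave 15 to 20 higher and 0 to 3 lower. In the direct comparison, 1 gene higher became 2 with RLE scaling or gene length offsets and 3 with DESeq2, and 3 lower became 1 with no filter or only the 8 libraries compared and 5 with DESeq2. Leaving out 1 library gave 1 to 7 higher and 1 to 9 lower. In each of these ranges the highest count is the one without miR-29a replicate 3. The replicate block changed 1 of these counts, the 3 lower in the direct comparison, to 1. Replicate numbers were not taken as pairs, because no label ties the numbers. The correlations of deviations between same-numbered miR-101a and miR-29a libraries were 0.242, -0.207, 0.348 and 0.406 for replicates 1 to 4. Between unlike-numbered libraries of these groups they ran from -0.475 to 0.391. Between same-numbered treated and control libraries they ran from -0.083 to 0.353. These values do not settle whether the numbers mark pairs.

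Of the 67 log2 values called with all libraries or without miR-29a replicate 3, 4 turned sign as 1 library was left out: with miR-29a, GADD45B ENSDARG00000027744 (-0.20 to 0.35) and, in the direct comparison, CCNG1 (-0.041 to 0.26), GADD45A ENSDARG00000104571 (-0.0621 to 0.45) and foxo3b (-0.20 to 0.23). Each turn came from leaving out a miR-29a library: replicate 3 for GADD45B and foxo3b, replicates 1, 2 and 4 for CCNG1, and replicates 1 and 4 for GADD45A. None of these was called with all libraries, and the cause was not tested. Values called in neither set also turned sign, such as BTG2 with miR-29a (0.24 with all libraries and -0.050 without replicate 3). Depth limits the low genes most, fas in control above all.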
